A study of Mus musculus with 2 samples.

Results

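The 45 genes described here encode homeodomain and paired-box transcription factors outside the Hox clusters: 6 Dlx, 8 Lhx, 7 Nkx, 6 Irx, 4 Otx and Emx, 3 En and Gbx, 2 Msx, 2 Pitx, 2 Barx and Barhl and 5 Pax genes, out of 55413 annotated mouse genes of which 21938 are protein-coding. They are given by a list of names. DNA methylation was mapped by reduced representation bisulfite sequencing, in which restriction fragments rich in CpG dinucleotides are treated with bisulfite and sequenced, so that an unmethylated cytosine is read as T and a methylated one as C. The study asked how knockdown of the long non-coding RNA *H19* alters DNA methylation in muscle cells. Myotubes formed from mouse C3H myoblasts in 2% horse serum were transfected with a control siRNA (siCon) or with an siRNA against *H19* (siH19), and genomic DNA was taken 48 h later. Each group was 1 library, so a test on reads compared these 2 libraries and not 2 conditions, and no value has an error between cultures. The *H19* RNA itself was not measured in these libraries, so the knockdown could not be checked in them.

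A homeodomain or a paired domain binds DNA, and the genes that encode these domains lay down the body plan, specify neurons, and pattern the limbs, head and gut in the embryo. In tissues where they are not used, genes of this kind are known to be held silent by Polycomb proteins, and their wide CpG islands are known to be prone to gain methylation in cultured and ageing cells. A methylation level says nothing by itself on whether a gene was transcribed. The myotube identity could not be read from methylation either: windows of 7 of 10 muscle genes had data, and their siCon levels ranged from 3.98% at *Des* to 72.7% at *Myog*, while *Krt5*, at 7.83%, was the 1 of 6 genes of other cell types with the 5 cytosines a region needed. *Cdh5*, an endothelial gene, had 4 cytosines and stood at 42.9% in siCon.

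A level here is the percentage of reads with C among all reads over the CpG cytosines of a region, taken over cytosines that had 5 or more reads in both libraries and lay outside the CCGG and TCGA sites that the restriction enzymes cut. The promoter window spans 1 kb on either side of the annotated gene start, and the body is the remainder of the gene. The 2 libraries listed 5453019 and 5266846 cytosines with 104999613 and 106372792 reads summed over cytosines, and 1850635 cytosines could be compared. Of these, 7831 lay in the windows or bodies of the 45 genes, at 4307 CpGs and with a median of 28 reads in each library. Windows held 3177 of them in 43 genes, and bodies held 4654 in 45 genes. The gene starts of *Lhx3* and *Lhx4*, both needed for the pituitary gland and motor neurons, had 33 and 20 CpGs in their windows but 0 that could be compared. The bodies of *Irx6* and *Msx2* held 3 and 2 cytosines and were not tested, so 43 windows and 43 bodies were.

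Stretches of 200 bases are shown for the 4 genes that mark the ends of the range: the highest and lowest window level in siCon, and the largest rise and fall in siH19. Each is read 5′ to 3′ on the gene's strand from RefSeq's GRCm38 sequence, and capitals mark the CpGs that were compared in at least 1 strand. CpGs left in lower case either lay in a restriction site or lacked the reads.
Barx1 (chr13:48663117-48663316, + strand, coding exon): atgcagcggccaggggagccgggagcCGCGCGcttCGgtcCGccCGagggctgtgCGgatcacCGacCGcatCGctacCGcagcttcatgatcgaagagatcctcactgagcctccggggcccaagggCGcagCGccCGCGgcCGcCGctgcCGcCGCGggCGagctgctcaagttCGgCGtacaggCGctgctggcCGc
Dlx2 (chr2:71546006-71546205, - strand, coding exon): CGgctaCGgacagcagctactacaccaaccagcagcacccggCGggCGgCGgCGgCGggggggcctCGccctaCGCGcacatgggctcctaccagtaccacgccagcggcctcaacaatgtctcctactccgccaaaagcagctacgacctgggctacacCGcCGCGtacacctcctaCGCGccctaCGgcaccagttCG
Emx2 (chr19:59458132-59458331, + strand, upstream of the gene start): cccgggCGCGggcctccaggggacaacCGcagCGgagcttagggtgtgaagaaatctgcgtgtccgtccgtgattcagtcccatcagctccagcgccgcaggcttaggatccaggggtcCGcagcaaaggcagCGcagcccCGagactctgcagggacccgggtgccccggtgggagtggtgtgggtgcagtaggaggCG
Msx2 (chr13:53472311-53472510, - strand, 179 of 200 bases in a coding exon): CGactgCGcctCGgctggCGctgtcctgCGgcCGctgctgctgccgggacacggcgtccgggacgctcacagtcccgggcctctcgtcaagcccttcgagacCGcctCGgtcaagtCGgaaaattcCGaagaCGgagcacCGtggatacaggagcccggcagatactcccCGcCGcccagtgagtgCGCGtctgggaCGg

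The *Barx1* stretch lies 119 to 318 bases after the gene start, and its 25 compared CpGs were methylated in 79.5% of 1568 siCon reads and 79.9% of 2448 siH19 reads. The *Dlx2* stretch, 549 to 748 bases after its start, has a similar base composition (68.0% against 73.5% GC) and was methylated in 0.366% of 1638 and 0.383% of 1304 reads over 17 CpGs. CpG-dense coding sequence of 2 homeobox genes in the same DNA thus stood at opposite ends of the scale. In the *Emx2* stretch, 240 to 41 bases before the start, 8 CpGs went from 20.8% of 409 reads to 31.0% of 439, and each of the 8 was higher in siH19. In the *Msx2* stretch, 564 to 763 bases after the start, 17 CpGs went from 26.4% of 992 reads to 19.2% of 1170, with 13 lower, 3 higher and the remaining CpG level. In each stretch the reads are summed over CpGs, so a read that spans several CpGs counts once at each. Neighbouring CpGs are therefore not independent.

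The first comparison placed the promoter windows of these genes among those of other genes. In siCon the median over the 43 windows was 19.0% (quartiles 14.0% and 24.3%), and in siH19 it was 18.7%. Over the 13511 windows of other protein-coding genes the medians were 2.05% and 2.03%. Most of the homeobox and Pax windows sat in a middle band: 31 of 43 (72.1%) lay between 10% and 50% in siCon, 7 (16.3%) lay under 5%, and 3 (6.98%) at 50% or above. Among other protein-coding windows 21.7% lay between 10% and 50%, and 62.3% under 5%. The contrast was wider against windows of like CpG content. The 8460 other protein-coding windows in which CpG reached 0.5 of the frequency expected from base composition, with 50% GC or more, had a median of 1.39%, with 72.2% of them under 5%. In a list of other homeobox and Pax genes, 57 windows had medians of 22.2% in siCon and 22.6% in siH19, with 73.7% of them between 10% and 50% and 5.26% under 5% in siCon. The 34 Hox windows had medians of 15.3% and 15.1%, but 44.1% of them lay between 10% and 50% and 35.3% under 5%. These are descriptions of single libraries, given with no test.

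**Figure D1:**
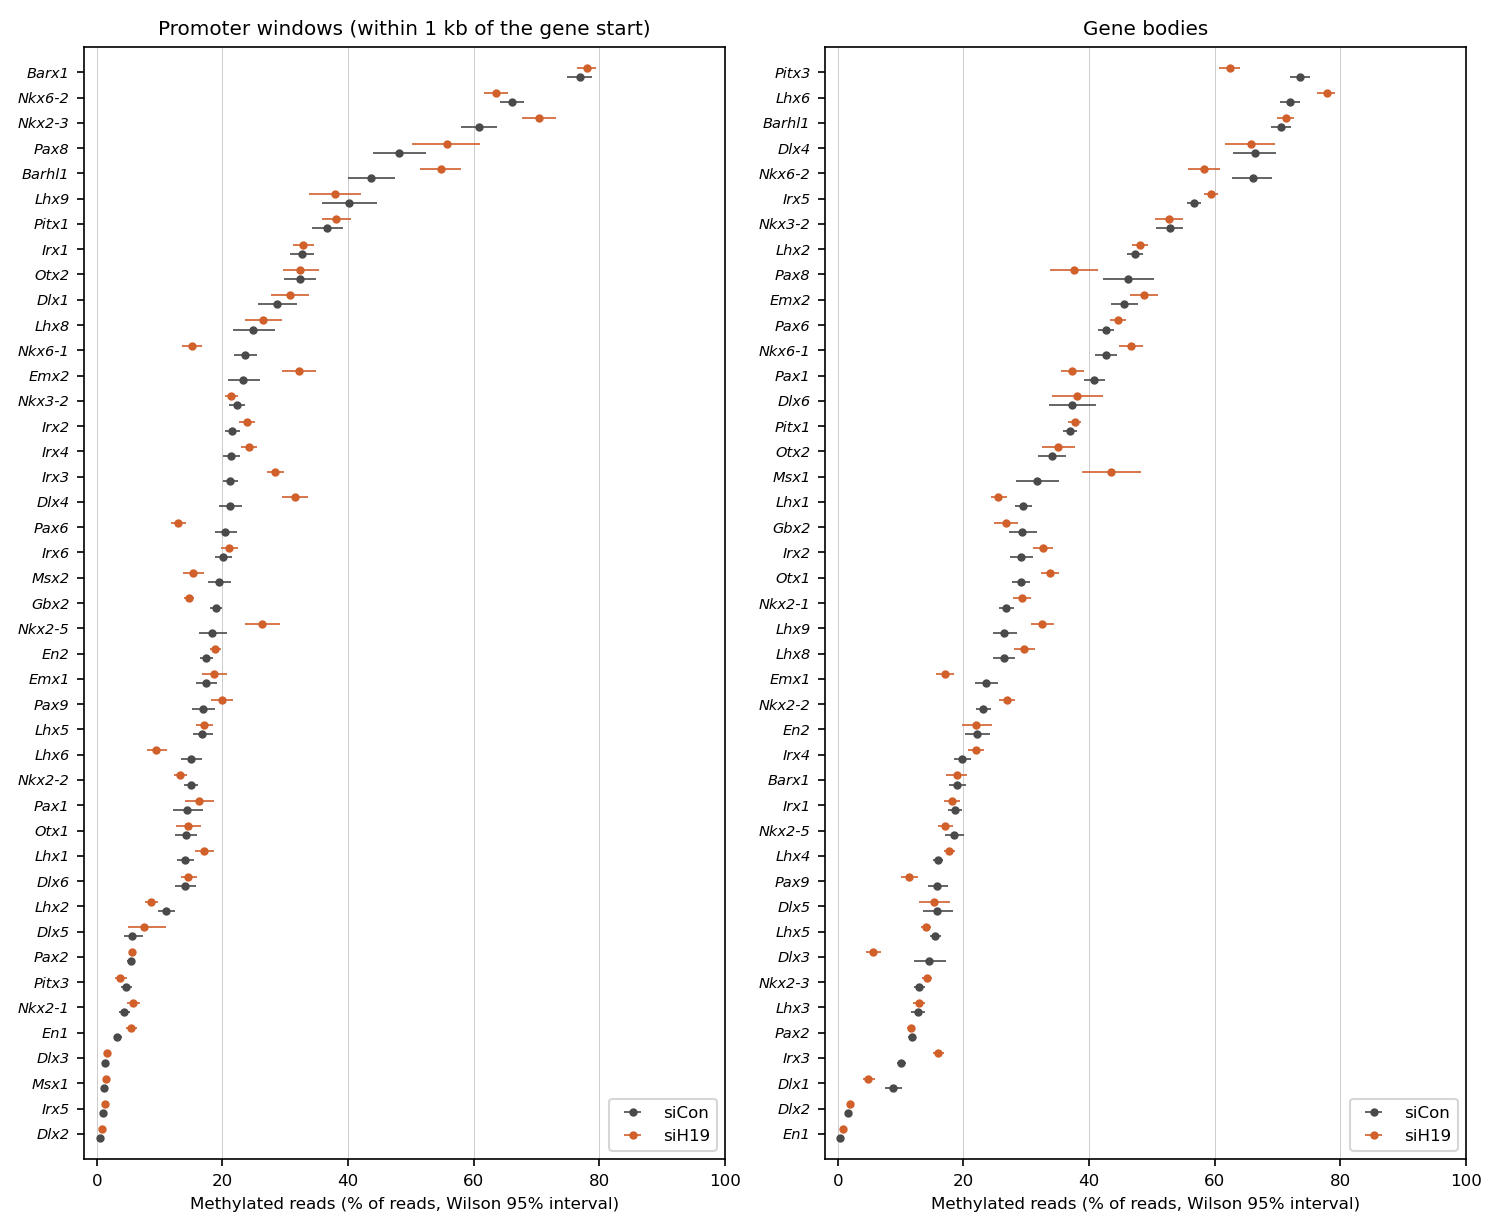
Methylation level of each tested promoter window (left) and gene body (right) of the homeobox and Pax genes, as the percentage of methylated reads in siCon (dark) and siH19 (orange), with Wilson 95% intervals that cover counting error only. Window levels ran from 0.548% at Dlx2 to 76.9% at Barx1 in siCon, and most of them lay between 10% and 50%.

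The 5 highest windows in siCon belonged to genes used in several tissues. *Barx1*, which patterns the stomach and teeth, was at 76.9% (Wilson 95% interval 74.8 to 78.8) in siCon and 78.0% in siH19. *Nkx6-2*, a factor of ventral neurons and oligodendrocytes, was at 66.1% and 63.6%. *Nkx2-3*, needed for the spleen and gut vasculature, was at 60.8% and 70.5%. *Pax8*, a factor of thyroid and kidney, was at 48.2% and 55.7% over 16 cytosines, the fewest of any tested window. *Barhl1*, a factor of inner ear hair cells and cerebellar neurons, was at 43.7% and 54.8%. Compared cytosine by cytosine, so that the spread of reads over cytosines does not enter, *Nkx2-3* differed by -1.10 ± 1.5 percentage points (counting standard error) and *Barhl1* by 2.56 ± 2.30, and neither passed the test.

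The 5 lowest windows held little methylation in both libraries, from 0.548% to 5.42%. *Dlx2*, a factor of forebrain interneurons, was at 0.548% (0.377 to 0.796) in siCon and 0.763% in siH19. *Irx5*, expressed in heart and retina, was at 1.05% and 1.37% over 150 cytosines, and *Msx1*, a factor of teeth and palate that also holds back muscle differentiation, was at 1.23% and 1.45%. *Dlx3*, needed in placenta, hair and teeth, was at 1.25% and 1.66%. *En1*, which patterns the midbrain and the ventral limb, was at 3.29% and 5.42%. The differences at the same cytosines lay between 0.0741 and 0.801 points in these 5 windows, and none passed the test.

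The Dlx genes lie in convergent pairs, and in each pair the window levels stood apart in siCon: 28.6% at *Dlx1* and 0.548% at *Dlx2*, with starts 18.6 kb apart; 1.25% at *Dlx3* and 21.2% at *Dlx4*, 26.1 kb apart; and 5.63% at *Dlx5* and 14.0% at *Dlx6*, 18.8 kb apart. Among the Irx genes, which pattern heart and nervous system from 2 clusters, *Irx5* at 1.05% lay between *Irx3* at 21.3% and *Irx6* at 20.1%. In the other cluster *Irx1*, *Irx2* and *Irx4* were at 32.7%, 21.5% and 21.5%, so the last 2 stood at the same level. The *Irx3* level rested on the edge of its window. Around a second annotated start 152 bases away, the window lost cytosines from 74 to 62 and stood at 0.714% in siCon and 0.769% in siH19.

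Lhx windows, whose genes specify neurons, pituitary, limb and gonad, ranged from 11% at *Lhx2* to 40.1% at *Lhx9*. Nkx windows ranged from 4.36% at *Nkx2-1*, the lung and thyroid factor, to 66.1% at *Nkx6-2*. The ends at *Lhx2*, *Lhx9* and *Nkx2-1* depended on the start used. Around a second *Lhx2* start, 11478 bases away, the siCon level was 28.7%. Around *Lhx9* starts 858 and 998 bases away the siCon level was 48.1%, but around those 6120 and 6148 bases away it was 2.58%. A second *Nkx2-1* start, 1802 bases away, stood at 23.5% in siCon. The 4 Otx and Emx windows, of genes that pattern the forebrain, lay between 14.1% and 32.3%. En and Gbx windows, of the midbrain and hindbrain, lay between 3.29% and 19.0%. *Pitx1*, which specifies the hindlimb, was at 36.7% and *Pitx3*, a factor of lens and dopamine neurons, at 4.66%. The 5 Pax windows ranged from 5.40% at *Pax2*, a factor of kidney and eye, to 48.2% at *Pax8*.

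Within windows, single cytosines were more often partly methylated than in other genes. In siCon 48.6% of the 3177 window cytosines lay between 10% and 90%, 48.8% lay under 10% and 2.61% above 90%. For 695927 window cytosines of other protein-coding genes these shares were 17.9%, 80.4% and 1.77%. The contrast varied with the density of CpGs. At cytosines with more than 20 CpGs within 100 bases, reads of the homeobox and Pax windows were methylated in 17.6% of cases in siCon and 19.8% in siH19, against 4.56% and 4.86% in other protein-coding windows. At 6 to 10 CpGs the siCon values were 26.2% and 18.4%, and at 1 to 5 CpGs, where these windows had only 33 cytosines, the order turned, at 28.3% and 36.6%.

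**Figure D2:**
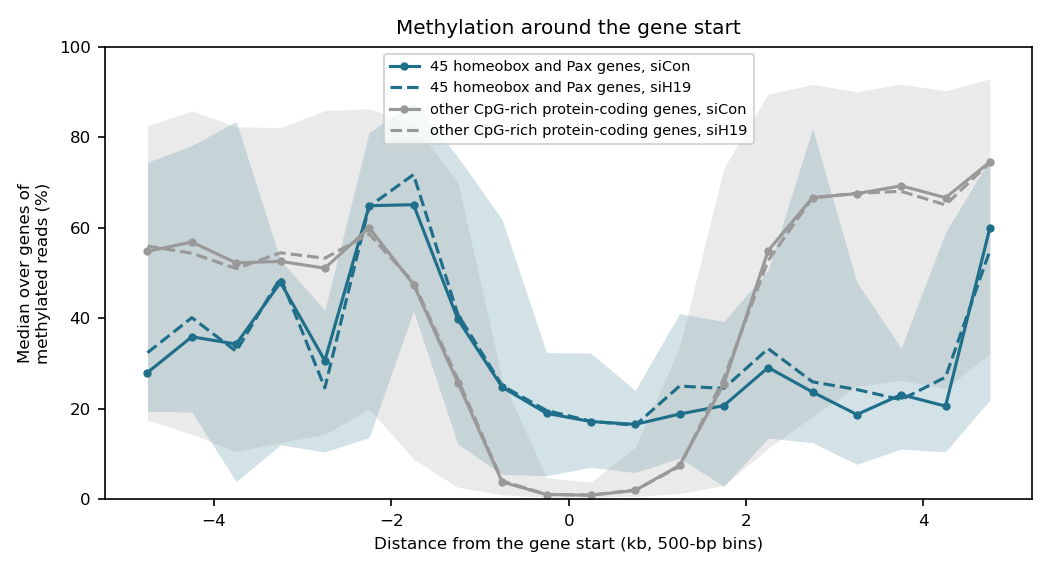
Median methylation over genes, in percent of reads, in 500-bp bins of distance from the gene start (kb) for the homeobox and Pax genes (blue) and other CpG-rich protein-coding genes (grey). Solid lines with points are siCon, dashed lines siH19, and shading spans the siCon quartiles over genes. The grey line drops to 0.844% just after the start and climbs to 67.6% at 3 kb, while the blue line is at 17.2% and 18.7% in those bins. Upstream the blue line reaches 65.1% and falls below the grey line further out.

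Up to 3499 bases after the start the profile was flatter than in other CpG-rich genes, but upstream it was not. In the bin from 0 to 499 bases after the start, 39 of the homeobox and Pax genes had a median of 17.2% in siCon, against 0.844% in other CpG-rich protein-coding genes. At 3000 to 3499 bases, 21 of them had a median of 18.7%, against 67.6%. At 4000 to 4499 bases, 13 of them had a median of 20.6%, against 66.7%. At 4500 to 4999 bases, 14 of them had a median of 60.0%, against 74.6%. Upstream, in the bin from -2000 to -1501 bases, the median of 12 of them was 65.1% in siCon and 71.8% in siH19. Other CpG-rich genes had 47.5% and 47.9% there. Further out, in every bin from -5000 to -2501 bases, the homeobox and Pax medians were the lower ones. They lay between 28.0% and 47.9% in siCon, against 51.1% to 56.9%. Each bin holds a different subset of genes, so the line does not follow the same genes throughout.

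In gene bodies the median level lay below that of other genes. The median over the 43 bodies tested was 26.9% in siCon and 29.3% in siH19, against 58.4% and 58.9% over 13951 bodies of other protein-coding genes. The list of other homeobox and Pax genes had a median of 29.2% in siCon and the Hox genes 22.3%. Exon and intron parts of the bodies were close in siCon, with medians of 28.5% over 39 genes and 27.2% over 42. In bodies 7.24% of the cytosines were above 90% in siCon, against 27.2% of body cytosines of other protein-coding genes. The order depended on CpG density. At 6 to 10 CpGs within 100 bases the bodies of these genes were at 30.3% in siCon against 57.7%, but at 16 to 20 CpGs they were at 31.0% against 20.2%, and at more than 20 CpGs at 23.9% against 10.9%.

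The highest bodies in siCon were *Pitx3* at 73.6%, *Lhx6*, a factor of cortical interneurons, at 71.9%, *Barhl1* at 70.6%, *Dlx4* at 66.4% and *Nkx6-2* at 66.1%. The corresponding siH19 levels were 62.4%, 77.8%, 71.4%, 65.8% and 58.3%. The lowest bodies were *En1* at 0.404%, *Dlx2* at 1.62%, *Dlx1* at 8.82%, *Irx3* at 10.1% and *Pax2* at 11.8%, and in siH19 they were at 0.892%, 1.98%, 4.89%, 16% and 11.6%. *Dlx2* was thus nearly free of methylation from promoter to body, while the *En1* window stood at 3.29% in siCon and 5.42% in siH19. At *Pitx3*, the widest of these gaps between libraries, the difference at the same cytosines was -0.879 ± 1.06 points.

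**Figure D3:**
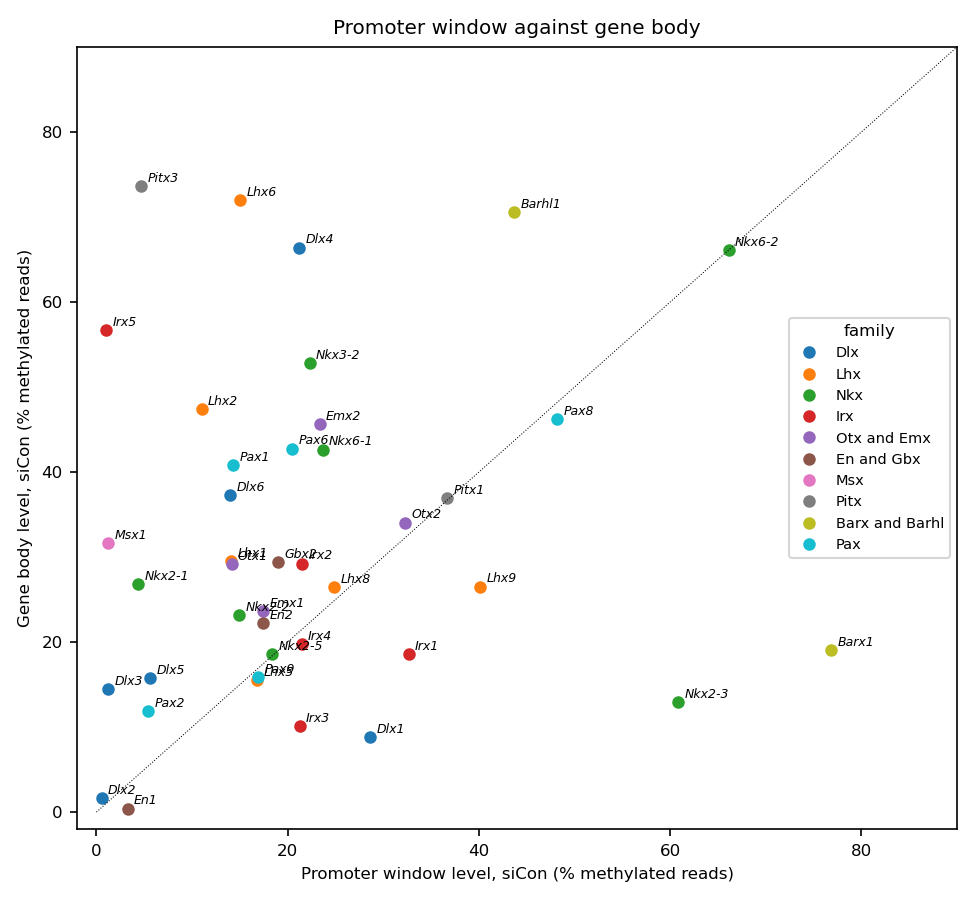
Promoter window level (horizontal) against gene body level (vertical) in siCon, in percent of methylated reads, for the 41 homeobox and Pax genes with both values, coloured by family. The dotted line marks equal levels. Genes far above it include Pitx3 and Irx5, with windows at 4.66% and 1.05%, and Lhx6, with a window at 15.1%. Barx1 and Nkx2-3 stand far below it.

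Of the 41 genes with both values, 29 had a higher level in the body than in the window in siCon and 26 in siH19. The gap exceeded 20 points in that direction at 13 genes. It was widest at *Pitx3*, with 4.66% in the window and 73.6% in the body, at *Lhx6*, with 15.1% and 71.9%, and at *Irx5*, with 1.05% and 56.7%. The opposite order by over 20 points occurred at *Barx1*, with 76.9% in the window and 19.0% in the body, and at *Nkx2-3*, with 60.8% and 12.9%. Both orders stood in siH19 as well, where body minus window was 58.6 points at *Pitx3* and -59.1 at *Barx1*.

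The second comparison asked whether these windows and bodies differed between siCon and siH19. Each cytosine was compared with itself, the differences were pooled (the matched difference, siH19 minus siCon, in percentage points), and a Cochran-Mantel-Haenszel (CMH) chi-square test of the reads, stratified by cytosine, was adjusted over the windows of all genes by the Benjamini-Hochberg method. To be called, a region needed a matched difference of 10 points or more as well as an adjusted p-value below 0.05. By that rule 0 of 43 windows were called, where 0.626% of 19476 windows of all genes were. Without the minimum size, 8 of 43 (18.6%) passed an adjusted p-value of 0.05, where 7.39% of all windows did. Of the 8, 3 rose, against 4.92% of all windows, and 5 fell, against 2.47%. At an unadjusted p-value under 0.05 there were 15 of 43, against 21.3% of all windows. The homeobox and Pax windows also held more compared cytosines, with a median of 65 against 39 over all genes. Their median of siCon reads, summed over cytosines, was 1967 against 1270. Fewer of them lay under 5% in siCon, 16.3% against 52.7% of all windows, and a level near 0% leaves little room for a fall. The part of these features in the counts was not tested. In the list of other homeobox and Pax genes 5 of 57 windows passed, all higher in siH19, and 5 of 34 Hox windows did, 3 higher and 2 lower.

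The matched difference had a median of 0.607 points over the 43 windows, with 28 higher and 15 lower in siH19, against a median of 0.0884 over all genes. It ranged from -5.56 to 8.54 points, and its counting standard error had a median of 1.07. The difference between the strands of the same CpGs within a library was set beside that between libraries. Each strand holds only part of a library's reads, so the 2 sizes carry unlike counting error. The median size of the strand difference was 1.24 points in siCon and 1.8 in siH19, and the median size of the difference between libraries was 1.49. Strands differed at an adjusted p-value under 0.05 in 4 of 43 windows in siCon, where 9.84% of all windows did, and in 5 in siH19, where 9.9% did. Plus and minus strands moved the same way in 24 of 43 windows (55.8%), close to the 50.8% of all windows.

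**Figure D4:**
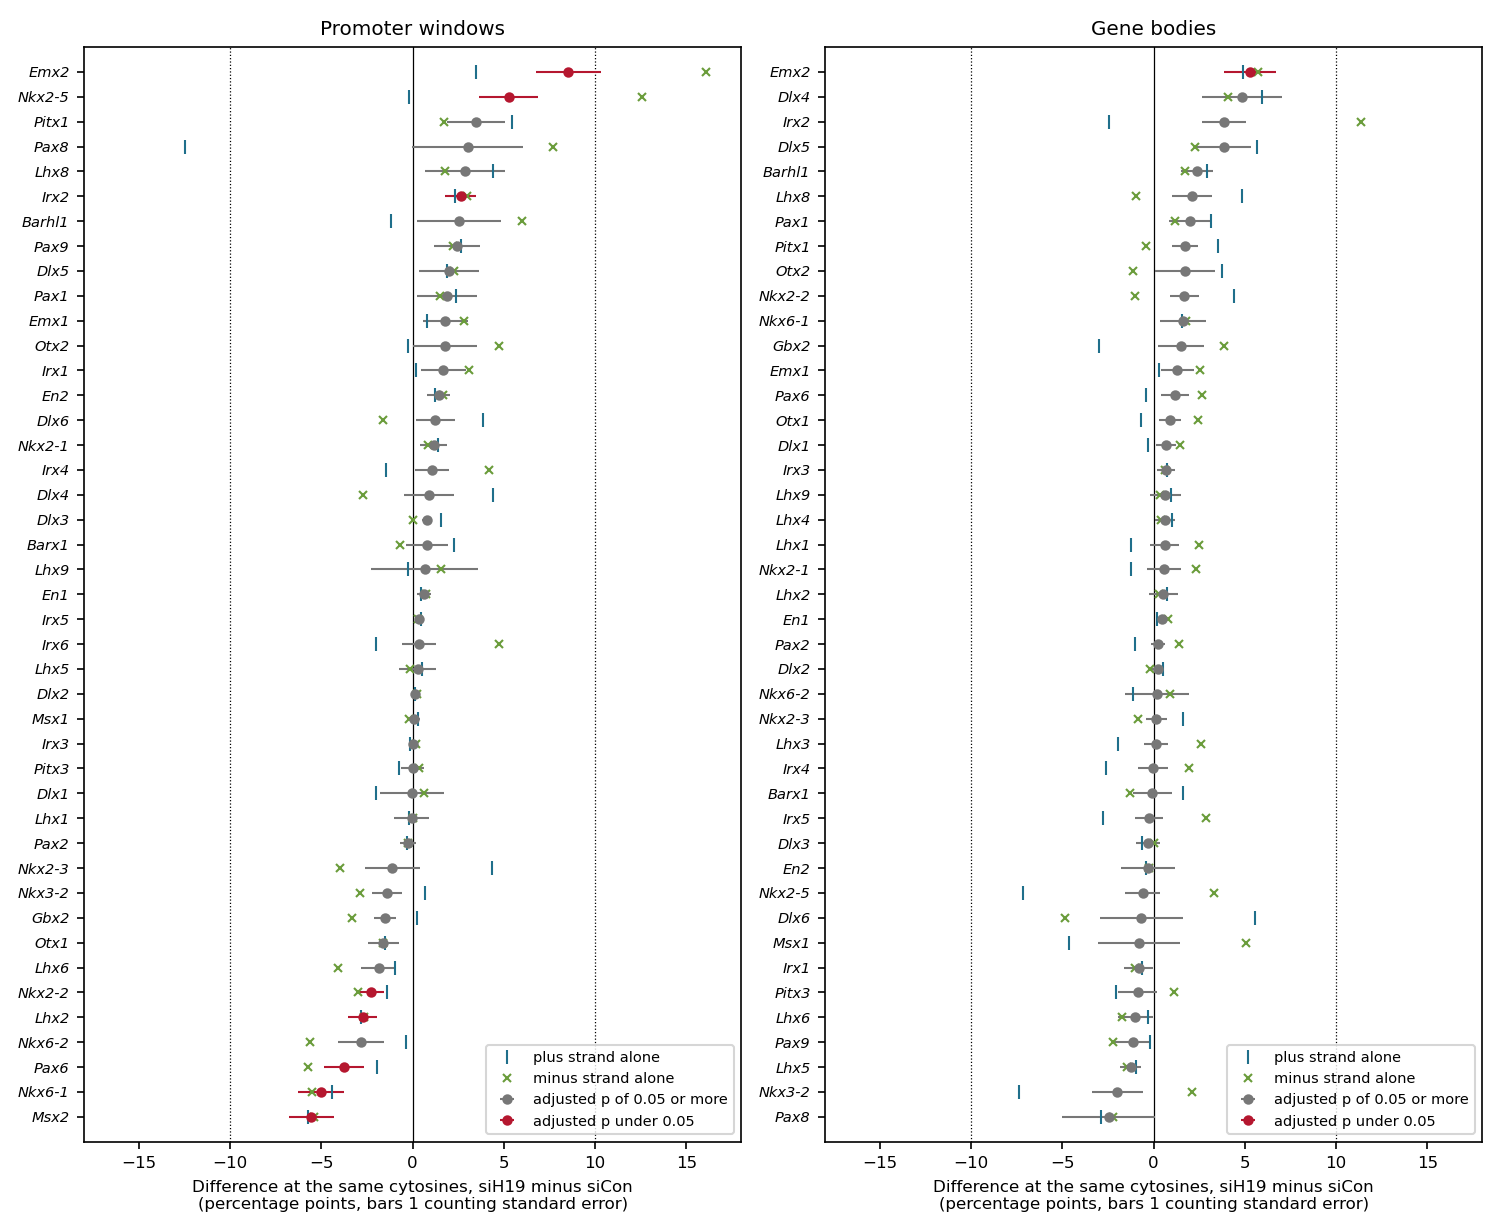
Matched difference, siH19 minus siCon, in percentage points for each tested promoter window (left) and gene body (right), with bars of 1 counting standard error. Red points passed an adjusted p of 0.05, ticks and crosses give the plus and minus strand alone, and dotted lines mark 10 points. All pooled values lie within 10 points of 0, Emx2 leads both panels, and the strands of several genes fall on opposite sides of 0.

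*Emx2*, which patterns the cerebral cortex and the urogenital tract, rose most. Its window (chr19:59457372-59459372) went from 23.3% (20.9 to 26.0) of 1058 reads to 32.1% (29.5 to 34.9) of 1136, a matched difference of 8.54 ± 1.79 points (CMH chi-square, adjusted p = 0.000321), and 21 of its 27 CpGs were higher in siH19. The size differed by strand, at 3.45 points on plus and 16.1 on minus. Just before the start the CpG at 213 bases went from 36.4% to 57.4%, the CpG at 107 bases from 14.8% to 31.1%, and the CpG at 42 bases from 16.1% of 31 reads to 41.7% of 12. A further group 822 to 838 bases after the start had only 6 siCon reads a CpG, and 4 of its 5 CpGs went from 0% to between 52.9% and 78.8%. With each of its 5 restriction fragments left out in turn the difference stayed between 6.21 and 11.1 points and the adjusted p-value did not exceed 0.0186. It did not pass on the plus strand alone (CMH chi-square, adjusted p = 0.395) or within 500 bp of the start, where it was 5.82 points (CMH chi-square, adjusted p = 0.0802). The antisense gene *Emx2os* overlaps this window.

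*Msx2*, a factor of skull, limb and skin appendages, fell most. Its window (chr13:53472074-53474074) went from 19.5% (17.7 to 21.4) of 1767 reads to 15.3% (13.7 to 17) of 1828, a matched difference of -5.56 ± 1.23 points (CMH chi-square, adjusted p = 0.000617). Both strands showed it, at -5.72 and -5.41 points, and 23 of 35 CpGs were lower. Further into the gene the CpG at 680 bases went from 30.6% of 72 reads to 5.13% of 117 and its neighbour at 696 bases from 41.7% to 20.3%. Without the restriction fragment that moved the value most, which holds 12 cytosines, the difference was -2.47 points and no longer passed (CMH chi-square, adjusted p = 0.280), and within 500 bp of the start it was -2.44 (CMH chi-square, adjusted p = 0.602).

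*Nkx6-1*, which specifies motor neurons and pancreatic beta cells, fell from 23.7% (21.9 to 25.5) to 15.1% (13.6 to 16.8). The matched difference in its window (chr5:101663996-101665996) was -5.02 ± 1.26 points (CMH chi-square, adjusted p = 0.00374), with -4.42 on plus and -5.54 on minus. It stayed between -6.06 and -4.46 points with each of 7 fragments left out, and the adjusted p-value did not exceed 0.0269. The fall did not pass on the plus strand alone (CMH chi-square, adjusted p = 0.0950), within 500 bp of the start (CMH chi-square, adjusted p = 0.25), or within 2 kb, where the difference was -2.27 points (CMH chi-square, adjusted p = 0.159). With single fragments left out, *Emx2* and *Nkx6-1* were the only 2 of the 8 windows that passed each time.

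The other 5 windows that passed had smaller differences. *Pax6*, the factor of eye development, fell from 20.5% to 13.0%, with a matched difference of -3.76 ± 1.09 (CMH chi-square, adjusted p = 0.0131). *Lhx2*, a factor of eye, forebrain and hair follicle, fell from 11% to 8.68%, with -2.74 ± 0.790 (CMH chi-square, adjusted p = 0.0130), and stood at -0.899 (CMH chi-square, adjusted p = 0.522) without 1 fragment of 13 cytosines. Around a second *Lhx2* start, 11478 bases away, the difference was 5.49 points over 15 cytosines. Over every *Lhx2* transcript start together it was -1.67 and did not pass (CMH chi-square, adjusted p = 0.173). *Nkx2-2*, which specifies ventral neurons and pancreatic cells, fell from 15% to 13.3%, with -2.30 ± 0.728 (CMH chi-square, adjusted p = 0.0307), and without 1 fragment of 22 cytosines stood at -1.43 (CMH chi-square, adjusted p = 0.317). *Irx2* rose from 21.5% to 23.9%, with 2.63 ± 0.849 (CMH chi-square, adjusted p = 0.0337), less than its strands differed within siCon (-6.95) or siH19 (-7.21). *Nkx2-5*, the early heart factor, rose from 18.4% to 26.3%, with 5.27 ± 1.62 (CMH chi-square, adjusted p = 0.0284), but by strand the difference was -0.192 on plus and 12.5 on minus. *Pitx1* had the third largest positive difference, 3.46 ± 1.59 points, and did not pass (CMH chi-square, adjusted p = 0.182).

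**Figure D5:**
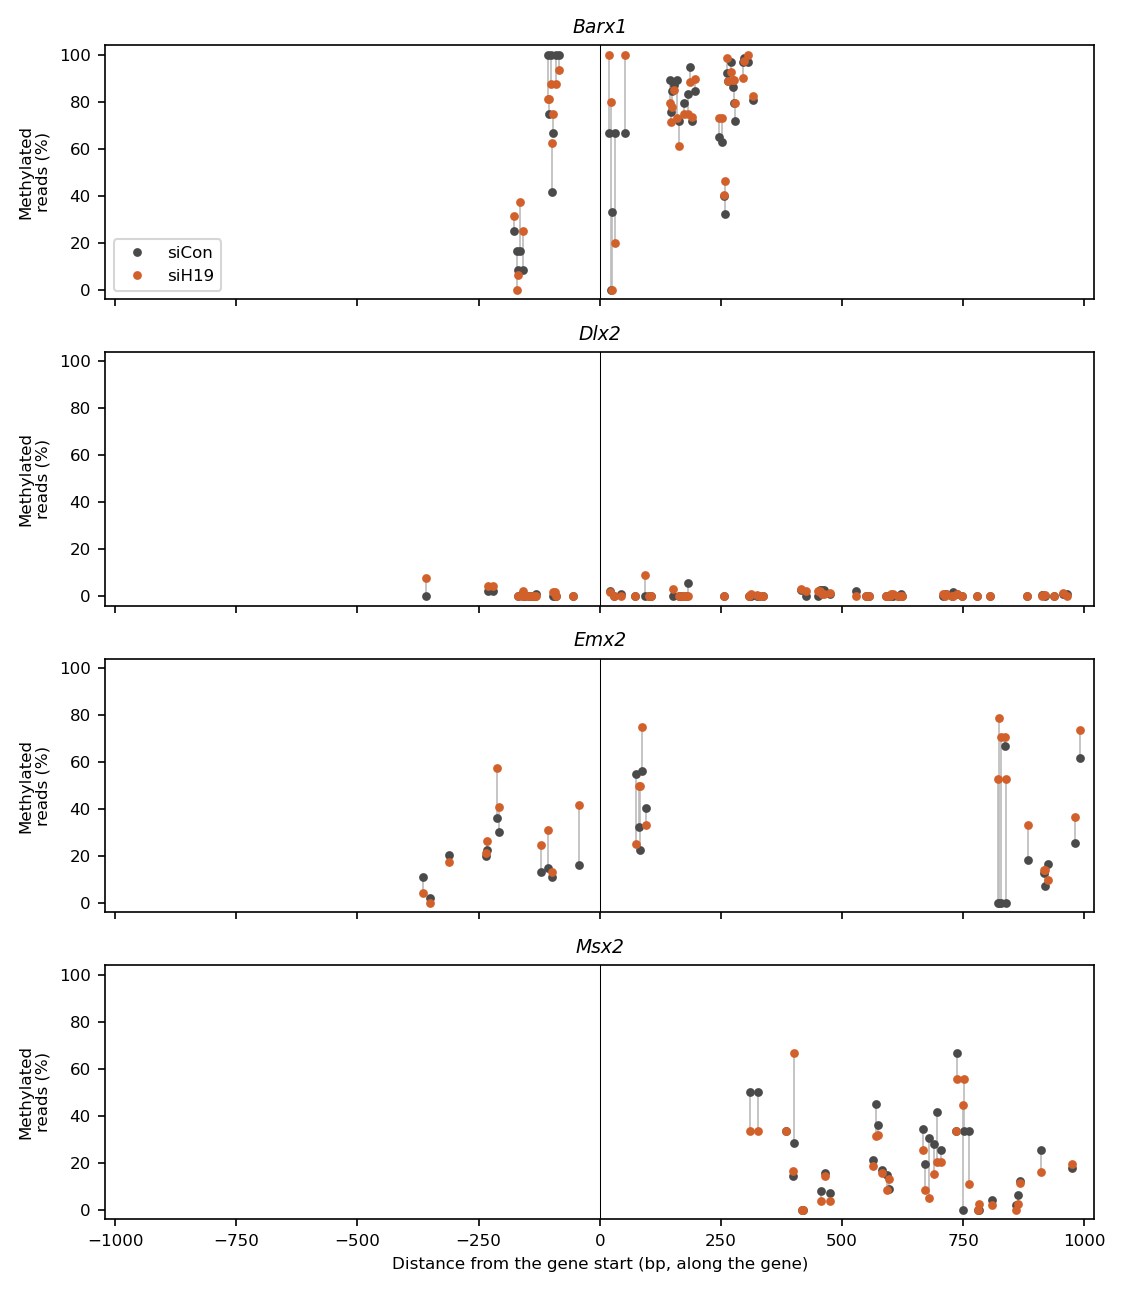
Methylation of each compared CpG, in percent of reads with the strands summed, by its distance from the gene start (bp) in the windows of Barx1, Dlx2, Emx2 and Msx2, with siCon dark, siH19 orange and a line joining the values of a CpG. Dlx2 lies near 0% throughout, Barx1 mostly above 60% after the start, 21 of 27 CpGs are higher in siH19 at Emx2, and 23 of 35 are lower at Msx2.

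Some of these windows hold no transcript start of the basic annotation. In 6 of the 45 genes (*Lhx4*, *Nkx2-2*, *Nkx2-5*, *Otx1*, *Pax1* and *Pitx1*) the annotated gene start lay over 1 kb from any such start. Around the transcript start of *Nkx2-5*, 3444 bases from the gene start, the level went from 24.4% to 25.9%, a matched difference of 0.891 points. At *Nkx2-2* the transcript start lay 7839 bases away, with 18.4% and 20.2% and a difference of -1.35. At *Pitx1*, 4767 bases away, the levels were 39.9% and 42.6% with a difference of 4.06, and at *Pax1*, a factor of the vertebral column, 3069 bases away, they were 51.0% and 50.1%, far above the 14.3% of its gene-start window in siCon. *Lhx4*, without data at its gene start, had 7.93% and 8.37% over 78 cytosines around its transcript start. The second start of *Lhx3* had 21.4% and 22.1%. *Pax6* has 8 annotated starts: the difference of -3.76 points belongs to the first, the start 2960 bases further on had no cytosine to compare, the start at 6291 bases had -0.290 points, and the starts 6533 to 7229 bases away were higher in siH19 by 1.10 to 1.90 points.

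In gene bodies 0 of 43 were called, where 0.316% of 18018 bodies of all genes were. Only the *Emx2* body passed an adjusted p-value of 0.05 without the size limit, where 1.4% of all bodies did (0.96% higher in siH19), and 9 of 43 had an unadjusted p-value under 0.05, where 13.1% did. The *Emx2* body rose from 45.6% (43.5 to 47.8) of 2078 reads to 48.8% (46.6 to 51.0) of 1991, a matched difference of 5.30 ± 1.42 points (CMH chi-square, adjusted p = 0.0248), with 4.91 on plus and 5.73 on minus. It stayed between 4.36 and 6.30 points with each of 11 fragments left out, and passed in 9 of the 11. It did not pass on plus alone (CMH chi-square, adjusted p = 0.192) or minus alone (CMH chi-square, adjusted p = 0.164). With restriction-site cytosines kept it was 3.05 points and did not pass (CMH chi-square, adjusted p = 0.138). Of 10 alternative settings, 4 kept it past the threshold. Window and body of *Emx2* share no cytosine.

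The next bodies did not pass. *Dlx4* had a matched difference of 4.84 ± 2.18 points, and 0.692 without 1 of its 7 fragments. *Irx2* had 3.85 ± 1.20 (CMH chi-square, adjusted p = 0.0770), made of -2.43 on plus and 11.4 on minus. The lowest values were -2.46 ± 2.56 at *Pax8*, -1.98 ± 1.38 at *Nkx3-2*, a factor of cartilage and spine, and -1.26 ± 0.578 at *Lhx5*, a factor of forebrain and hippocampus. The median over the 43 bodies was 0.544 points, with 28 higher and 15 lower. Over all genes it was 0.177, with 9754 of 18018 bodies higher. Strands differed within a library at an adjusted p-value under 0.05 in 5 of 43 bodies in siCon, where 4.54% of all bodies did, and in 4 in siH19, where 5.62% did. The median size of the strand difference, 1.89 points in siCon, was above that of the difference between libraries, 0.809, but it rests on fewer reads on each side.

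By family, all 6 Irx windows were higher in siH19, by 0.0308 to 2.63 points, and 1 passed. Over all genes 10722 of 19476 windows were higher. All 6 Irx windows were higher on the minus strand alone. On plus alone *Irx3*, *Irx4* and *Irx6* were lower, at -0.162, -1.46 and -1.99 points. Of 7 Nkx windows 5 were lower and 2 higher, from -5.02 to 5.27 points, and 3 passed. In the Dlx family 5 of 6 windows were higher by up to 2.01 points and none passed. Lhx windows divided into 3 higher and 3 lower, and Pax windows into 3 and 2. All 4 Otx and Emx bodies were higher, by 0.888 to 5.30 points, and over all genes 9754 of 18018 bodies were. No family was compared with another by a test.

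At the level of single cytosines, 107 of 7831 (1.37%) were strongly changed, meaning a Fisher's exact p-value under 0.05 and at least 33 points, where 0.987% of all compared cytosines were. With the strands of each CpG summed the shares were 0.730% and 0.757%, so the higher share in these genes was not seen. Of the 107 counted strand by strand, 61 were higher in siH19, where 0.52% of all cytosines were, and 46 lower, where 0.467% were. They fell in 36 of the 45 genes, 42 in windows and 65 in bodies. An unadjusted p-value under 0.05 was reached by 349 (4.46%, against 2.53% of all). After adjustment over all cytosines 2 passed, where 0.00648% of all did. The cytosine on the other strand of the same CpG was covered for 80 of the 107, and 34 of those 80 moved in the same direction.

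Both cytosines that passed lacked the change on their partner strand. In *Nkx2-5* (chromosome 17, position 26844198, minus strand, 811 bases after the gene start and outside annotated exons) 0 of 19 reads were methylated in siCon and 18 of 26 in siH19 (Fisher's exact test, adjusted p = 0.0260), and the partner cytosine was at 50% in both. In *Irx4*, a factor of the heart ventricle (chromosome 13, position 73260595, plus strand, untranslated exon), 8 of 8 reads were methylated in siCon and 2 of 30 in siH19 (Fisher's exact test, adjusted p = 0.0243), and the partner went from 22.2% to 25.7%. A second *Irx4* cytosine in that exon (position 73260622, minus strand) went the other way, from 0 of 28 to 16 of 36. In *Nkx6-2* the coding cytosine at position 139581511 of chromosome 7 went from 0 of 19 to 24 of 45 while its partner went from 44.4% to 25%. The *Msx2* cytosine at position 53472393 of chromosome 13, inside the stretch shown above, went from 16 of 34 reads to 2 of 49 (Fisher's exact test, adjusted p = 0.0519), and its partner from 15.8% to 5.88%. In *Irx4* the coding cytosine at position 73265537 went from 6 of 8 to 2 of 52, with its partner at 0% of 14 and 12.0% of 50 reads.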

How the data were processed

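Reduced representation bisulfite libraries of 1 siCon and 1 siH19 sample were grouped by their labels. The authors digested DNA with TaqαI and MspI, aligned reads with Bismark in non-directional mode, trimmed filled-in nucleotides and deposited, for each CpG cytosine and strand, a text field of methylated and total reads (raw, unit other) and a score, the methylated fraction scaled to 1000. The score matched the counts in 100% of entries. Removal of duplicate reads was not given in the sources used here. The labels name mm10 and bcl2fastq 1.8.4. Gene models were those of GENCODE vM21 (basic set), and 100% of 6041258 positions on assembled chromosomes were CpG cytosines of GRCm38.

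Cytosines with at least 5 reads in both libraries, outside CCGG and TCGA, were kept, strands apart, and regions needed 5 of them. Regions were compared by a two-sided Cochran-Mantel-Haenszel test stratified by cytosine, with the Mantel-Haenszel difference and its counting error, and cytosines by Fisher's exact test, with Benjamini-Hochberg adjustment over all regions or cytosines (Python 3.11.15, numpy 2.4.6, scipy 1.17.1, numba 0.67.0). Wilson 95% intervals hold counting error alone, and PCR copies of a molecule could not be told from separate molecules. Tests, errors and intervals treat each call of a read at a cytosine as independent, although a read can cover several cytosines. They can therefore be too narrow. The tests were tried on simulated data in which reads were drawn independently at each cytosine. That trial could not show how reads shared by neighbouring cytosines affect the p-values. The genes and lists were chosen with earlier results of these data known. Named were the 5 highest and 5 lowest levels, the 3 largest differences each way, the 3 cytosines of lowest p each way among those strongly changed, and, beyond that rule and chosen after their values were seen, the other windows that passed, annotated starts, linked pairs and widest contrasts between window and body. The alternatives were other read minimums, restriction-site cytosines, single strands, depth, repeats, starts, windows, tests and thresholds. Leaving out single restriction fragments was added after seeing the data.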

Additional observations from a re-analysis of the deposited data

How the results depend on the processing

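Of 168 repeats of the named differences, 104 kept direction and side of the threshold, 48 kept direction and no longer passed, 10 newly passed and 6 changed sign. The 6 were *Pax8* body (0.210 points with restriction-site cytosines kept and 1.36 without its most influential fragment), *Nkx2-5* window (-0.192 on plus alone), *Irx2* body (-2.43 on plus alone), *Nkx3-2* body (2.11 on minus alone) and *Dlx4* body (-0.592 with summed reads). Across its repeats the adjusted p-value of the *Emx2* window ranged from 2.18e-05 to 0.869, that of *Msx2* from 0.000151 to 0.869 and that of *Nkx6-1* from 7.16e-10 to 0.869, each highest with fragments as units. That test takes the cytosines of a fragment and strand together as a single unit. It gave 0 adjusted calls over all genes, so it cannot set these windows apart from others. The cause of these changes was not tested.

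The count of called windows, 0, was 2 on minus alone (4.65% against 0.864% of all genes' windows). With Fisher's exact test on summed reads it was 2 (4.65% against 2.52%). It was 4 at 5 points (9.30% against 1.78%) and 8 with no minimum difference (18.6% against 7.39%). The 8 windows without a minimum were 2 on plus alone (4.65%, below the 6.73% of all genes' windows), 3 within 500 bp (7.5%, beside 7.37%), 5 around every transcript start (11.1% against 7.43%), 5 within 2 kb (11.4% against 6.38%), 16 with summed reads (37.2% against 16.8%) and 0 with fragments as units (3 at an unadjusted p-value under 0.05). Called bodies, 0, were 1 on minus alone (2.33% against 0.445% of all genes' bodies) and 2 with summed reads (4.65%, below 8.67%). They were 1 at 5 points (2.33% against 0.744%) and 1 with no minimum (2.33% against 1.40%). The 1 body without a minimum was 0 at 10 reads or more, 4 on plus alone (9.3% against 1.28% of all genes' bodies), 2 without the deepest cytosines (4.65% against 1.28%), 23 with summed reads (53.5% against 26.3%) and 0 with fragments as units (2 unadjusted). Strongly changed cytosines, 107, were 70 at 10 reads or more (1.06% against 0.773% of all cytosines), 180 with restriction-site cytosines kept (1.68% against 1.42%) and 237 at 20 points (3.03% against 1.86%). They were 32 with strands summed, where the share of 0.730% was no higher than the 0.757% of all cytosines. The 2 that passed adjustment were 49 with restriction-site cytosines kept (0.456% against 0.236%). The median window level with those cytosines kept was 28.7% in siCon and 28.9% in siH19. The median body level was 37.1% and 37.9% with them kept, 29.4% and 32.7% around every transcript start and 28.6% and 30.7% as an unweighted mean, 27.2% in siH19 at 10 reads or more, 28.6% in siCon on plus alone and 26.2% in siH19 on minus alone.

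No paired analysis was possible because each group was 1 library. With no replicate, a difference between cultures and the knockdown cannot be told apart, the errors count reads alone, and windows with few reads, such as *Pax8* with 16 cytosines, could show only large differences.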
